A study of Mus musculus with 8 samples.

Results

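The genes described here are 3 zinc finger transcription factors that keep fetal genes off in the liver after birth (Zhx2, Zbtb20 and Zfhx3) and 5 genes that the mouse liver makes before birth and turns down afterwards (Afp, H19, Gpc3, Lpl and Bex1). They were taken as a named list of 8 of the 45706 gene rows in the count table, each found by its gene symbol. The genes were chosen by the measured difference between KO and WT as well as by function, since it was already known that H19, Gpc3, Lpl and Bex1 were higher in the knockout livers. The comparison of the groups is therefore given for these genes as a description, without a test. All 8 genes passed the filter on low counts. For Bex1 and Gpc3 this rested on the KO libraries, since the WT libraries held 5 and 58 counts in all.

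The samples were livers of C57BL/6 mice, 4 labelled HuR WT and 4 labelled HuR KO, with 1 RNA-seq library per mouse. HuR, the product of Elavl1, binds and stabilises many mRNAs and regulates their translation. The sources used here do not give the deleted exons, the cells in which HuR was removed or the age of the mice. The design compares the 2 genotypes.

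Zhx2 was identified in mice as the gene behind a strain difference in how completely Afp is silenced after birth, and H19, Gpc3 and Lpl were later added to the genes it controls. Zbtb20 binds the Afp promoter and is needed for Afp to be shut off, and Zfhx3, also called ATBF1, represses Afp through its enhancer and promoter. The silenced genes return in regenerating liver and in hepatocellular carcinoma, which is why they are called oncofetal.

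Total gene counts were 18649618 to 31249286 per library, and 14645 genes passed the filter. Elavl1, the targeted gene, measured 32.7, 45.7, 42.9 and 46.6 CPM (counts scaled to library size) in the WT group and 49.4, 56.0, 49.1 and 45.6 CPM in the KO group, in the order of replicates 1 to 4 as throughout. Its level was thus not lower in the libraries labelled KO (log2 difference 0.25, SE 0.11, edgeR adjusted p = 0.258), and a count over the whole gene cannot show the loss of single exons. WT and KO below therefore mean the libraries so labelled, and every direction rests on those labels. WT replicate 3 stood apart from its group. Its mean distance over all genes was 0.597 log2 units to the other WT libraries and 0.586 to the KO libraries, against 0.534 to 0.566 and 0.637 to 0.662 for the other WT libraries. The mice carried numbers from 98 to 100 (WT replicate 3, KO replicates 3 and 4) or numbers of 4 digits (the other 5), and what separates these number series is not stated. Hepatocyte markers summed to 138164 to 154465 CPM in WT and 125217 to 147652 CPM in KO libraries, with all 10 detected, as the tissue label says.

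The repressors differed little between the groups, whereas 4 of the 5 silenced genes lay higher in every KO library than in any WT library. The fitted fold between KO and WT was 0.866 for Zhx2, 0.943 for Zbtb20 and 1.10 for Zfhx3, against 19.4 for Bex1, 11.1 for H19, 5.40 for Gpc3 and 1.86 for Lpl. Afp, the gene for which these repressors are best known, measured near 1 CPM in both groups. In whole liver, more cells of a type and more RNA per cell cannot be told apart.

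Of the 5 silenced genes 4 were called higher by edgeR at an adjusted p under 0.05, while 2.32% of all genes tested were called higher. The same 4 did not overlap between the groups, a pattern that 6.19% of all genes tested showed in this direction and 5.01% in the other. Of the 3 repressors edgeR called 0, with 0 at an unadjusted p under 0.05 and 0 by DESeq2 and limma-voom, and 1.37% of all genes were called lower. Because these genes were listed for this contrast, nothing is read from those counts. Without WT replicate 3 the log2 differences were 3.78 for H19, 4.46 for Bex1, 2.16 for Gpc3 and 0.89 for Lpl. The repressors were then at -0.24 (Zhx2), -0.11 (Zbtb20) and 0.20 (Zfhx3).

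**Figure D1:**
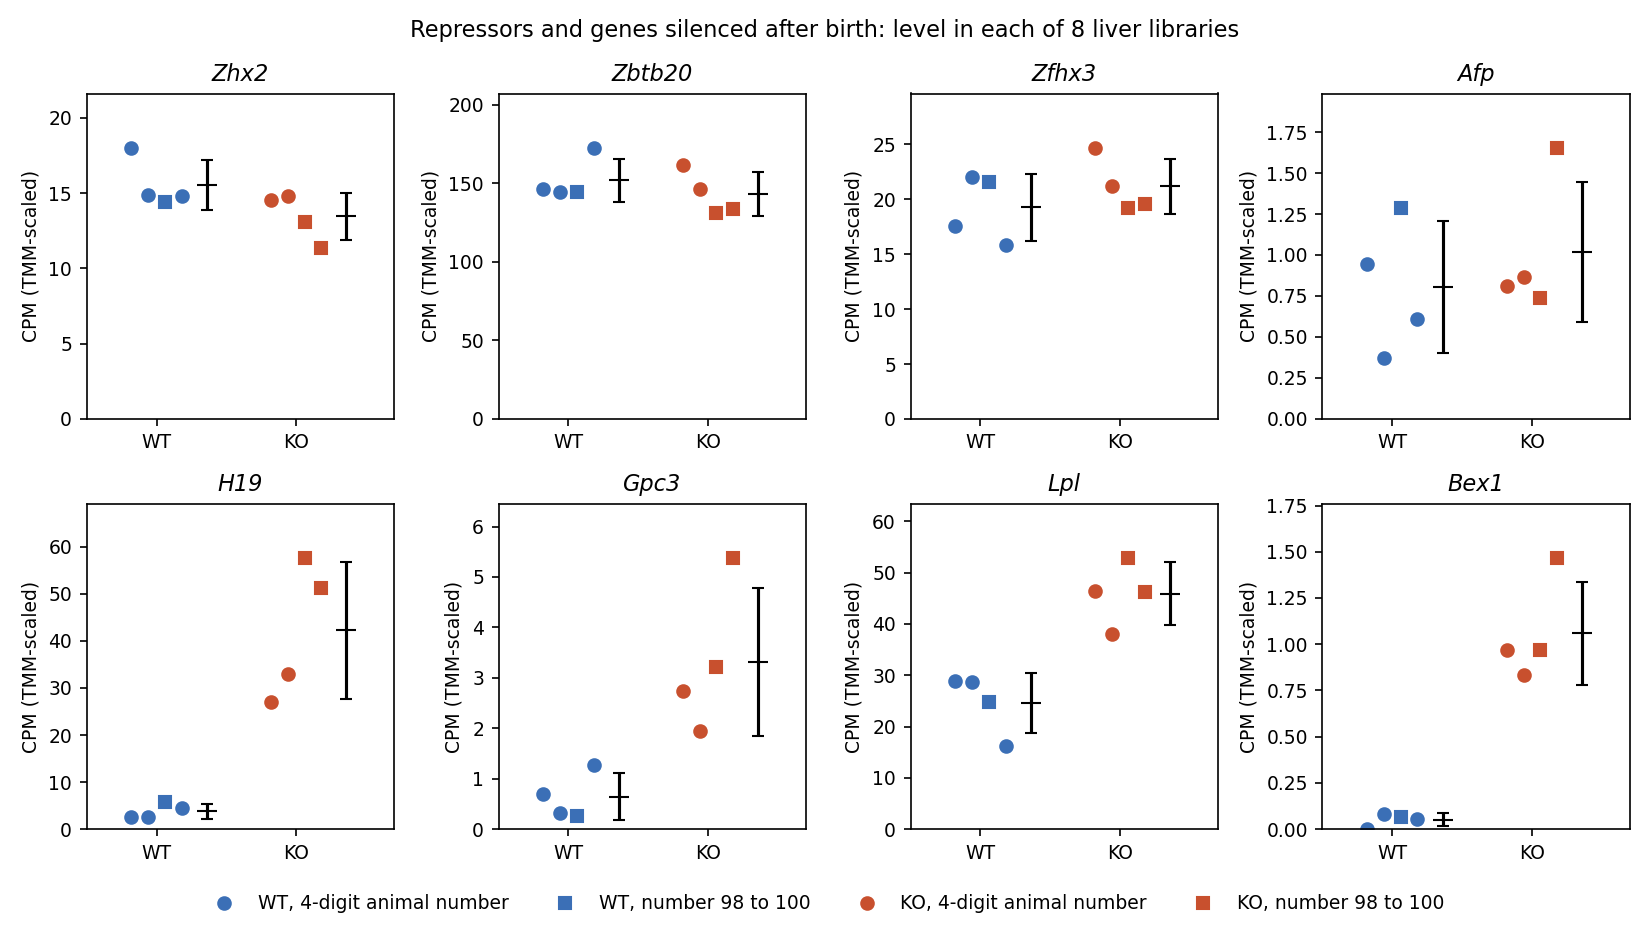
CPM of the 8 genes in each library, on linear axes from 0, with WT and KO side by side; squares are animals numbered 98 to 100, circles are animals with 4-digit numbers, and bars give the mean ± SD over 4 libraries. The groups overlap for Zhx2, Zbtb20, Zfhx3 and Afp and are apart for H19, Gpc3, Lpl and Bex1.

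Zhx2 (ENSMUSG00000071757) spans chr15:57694665-57839832 on the plus strand of mm10, with 5 exon blocks of 4434 bases in all. It encodes a homeodomain and zinc finger protein that represses transcription. Zhx2 measured 18.0, 14.8, 14.4 and 14.8 CPM in the WT group and 14.5, 14.8, 13.1 and 11.4 CPM in the KO group. WT replicate 1 was the highest library, KO replicate 4 the lowest, and the groups overlapped, with 2 KO libraries below the lowest WT library. The mean was 15.5 ± 1.67 CPM in WT and 13.4 ± 1.58 CPM in KO (SD, n = 4), a log2 difference of -0.21 (SE 0.13) and a fitted fold of 0.866 with a 95% interval from 0.716 to 1.05. The sign was negative under all 17 alternative settings, from -0.26 to -0.11.

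Zbtb20 (ENSMUSG00000022708) lies at chr16:42875881-43642602 on the plus strand, with 28 exon blocks. Its BTB domain recruits corepressors and its zinc fingers bind DNA. Its levels were 146, 144, 144 and 173 CPM in the WT group and 161, 147, 131 and 134 CPM in the KO group. WT replicate 4 stood above the rest, and 2 KO libraries lay below the lowest WT library while the groups overlapped. The means of 152 ± 13.8 and 143 ± 14.0 CPM (SD, n = 4) gave a log2 difference of -0.08 (SE 0.10) and a fold of 0.943, with an interval from 0.812 to 1.09.

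Zfhx3 (ENSMUSG00000038872), at chr8:108703100-108961630 on the plus strand with 11 exon blocks, encodes a very large protein with many zinc fingers and several homeodomains. It measured 17.5, 22.1, 21.6 and 15.8 CPM in the WT group and 24.7, 21.2, 19.2 and 19.6 CPM in the KO group. KO replicate 1 was the highest and WT replicate 4 the lowest, with the other 6 libraries intermixed. The log2 difference was 0.13 (SE 0.13) between means of 19.3 ± 3.07 and 21.2 ± 2.50 CPM, a fold of 1.10 with an interval from 0.903 to 1.33. The 3 repressors were thus measured tightly, with coefficients of variation of 9.10% to 16.0% within groups, and the lowest bound of their 3 fold intervals was 0.716, that of Zhx2.

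The counts for this and each later list are to be read beside the shares over all genes tested. EdgeR called 2.32% of them higher, 1.37% lower and 3.69% in either direction, and 18% had an unadjusted p under 0.05. DESeq2 called 613 of 14645 genes higher and 495 lower, and limma-voom 324 and 181. Of 5 genes listed as relatives of the repressors (Zhx1, Zhx3, Zfhx2, Zfhx4 and Homez), all were tested, 0 were called higher and 1 lower. The median log2 difference was 0.04, against -0.0046 over all genes tested. Zfhx2 fell from 18.7 ± 4.72 to 11.8 ± 0.904 CPM (log2 -0.67, SE 0.16, edgeR adjusted p = 0.0292). That call was lost without WT replicate 2, without any 1 of the 4 KO replicates, and among the animals with 4-digit numbers alone. Zhx1 and Zhx3, the partners with which Zhx2 forms dimers, were not called, with log2 differences of 0.05 and 0.04.

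Afp (ENSMUSG00000054932), at chr5:90490737-90508907 on the plus strand with 15 exon blocks, encodes alpha-fetoprotein, the albumin-like serum protein of the fetus. The 250 bases before its start in RefSeq (GRCm38.p6, chr5:90490464-90490713, plus strand, 5′ to 3′) are shown because Zhx2, Zbtb20 and Zfhx3 are known to act on the Afp promoter. Capitals mark matches with at most 2 mismatches to the HNF1 motif, which is GTTAAT followed by N and ATTAAC, and the TATA box TATAAA.
Afp promoter: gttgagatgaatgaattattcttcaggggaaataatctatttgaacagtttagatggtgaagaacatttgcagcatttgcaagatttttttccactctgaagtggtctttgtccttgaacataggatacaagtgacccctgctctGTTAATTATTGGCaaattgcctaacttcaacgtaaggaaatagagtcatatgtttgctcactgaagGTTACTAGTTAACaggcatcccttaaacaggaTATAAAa
The HNF1 matches begin 105 and 39 bases before the RefSeq start and read on both strands, the first overlapping a CCAAT on the minus strand. The TATA box begins 7 bases before the RefSeq start. The row of Afp in the count table starts further downstream, at chr5:90490737, so these distances hold for the RefSeq start alone. Over all 32851 promoter windows of this length, 1.24% held such an HNF1 match and 12.4% a TATAAA on either strand. The window has a GC content of 36.0%, against a median of 52.4%.

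Afp measured 0.948, 0.370, 1.29 and 0.610 CPM in the WT group and 0.813, 0.867, 0.738 and 1.65 CPM in the KO group. These levels rest on 9 to 44 counts per library. KO replicate 4 was the highest and WT replicate 2 the lowest, and the other 3 KO libraries lay within the WT range. The log2 difference of 0.32 (SE 0.44) between means of 0.804 ± 0.401 and 1.02 ± 0.427 CPM (SD, n = 4) corresponds to a fold of 1.24, with an interval from 0.647 to 2.40. That interval takes in lower as well as higher levels. Without KO replicate 4 the log2 difference was -0.02, and without WT replicate 3 it was 0.65.

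Genes related to Afp were listed as well. Of 14 transcription factors known to act on Afp, all tested, 1 was called higher and 0 lower, against 2.32% and 1.37% of all genes tested. Their median log2 difference was 0.04. Foxa3, a forkhead factor of hepatocytes, rose from 39.6 ± 9.34 to 59.4 ± 5.74 CPM (log2 0.58, SE 0.15, edgeR adjusted p = 0.0480). The call was lost under a stricter filter on low counts and when WT replicate 1, 2 or 4 or any KO replicate was left out. The other 3 genes of the albumin family, Alb, Afm and Gc, gave 0 calls by edgeR, 1 unadjusted p under 0.05 and 1 call by DESeq2, the largest difference being that of Afm (log2 -0.32, adjusted p = 0.113).

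H19 (ENSMUSG00000000031), at chr7:142575529-142578143 on the minus strand with 4 exon blocks of 2372 bases, is a non-coding RNA expressed from the maternal chromosome and among the most abundant RNAs of fetal liver. Its exons hold the precursor of miR-675, whose mature forms are shown because they are the known small RNA product of H19. They lie at chr7:142577112-142577133 (5p) and chr7:142577078-142577099 (3p) on the minus strand in RefSeq (GRCm38.p6), and capitals mark the seed, bases 2 to 8.
mmu-miR-675-5p: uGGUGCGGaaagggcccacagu
mmu-miR-675-3p: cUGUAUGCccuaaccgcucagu
The seeds of the arms differ. The row for the Mir675 precursor shares 84 bases with the H19 exons (3.54% of them) and held 0 counts in all libraries, and the mature forms were not measured here.

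H19 measured 2.48, 2.51, 5.75 and 4.44 CPM in the WT group and 27.1, 33.0, 57.6 and 51.3 CPM in the KO group. The lowest KO library lay above the highest WT library by a wide margin, and within each group the animals numbered 98 to 100 were the highest. The means of 3.79 ± 1.59 and 42.2 ± 14.5 CPM (SD, n = 4) gave a log2 difference of 3.47 (SE 0.37), a fold of 11.1 with an interval from 6.07 to 20.3. Over the alternatives the log2 difference ran from 3.27 to 3.78, the latter without WT replicate 3.

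The number series is a contrast that the choice of genes did not use, so it can be tested. With genotype in the model, H19 was higher in the animals numbered 98 to 100 (log2 0.87, SE 0.15, fold 1.83 with an interval from 1.46 to 2.30, edgeR adjusted p = 0.00961 over all genes tested). It was the 1 of 8 genes called in this contrast, in which 1.43% of all genes tested were called higher, 0.976% lower and 2.41% in either direction. The other 7 gave 0 calls, with 0 at an unadjusted p under 0.05 and 0 by DESeq2 and limma-voom, and their adjusted p values ran from 0.385 to 0.923. Mean H19 was 5.75 CPM in the single WT animal numbered 98 to 100 and 3.14 CPM in the 3 others, and 54.4 and 30.03 CPM in the KO pairs. The ratio of KO to WT means was 9.47 among animals 98 to 100 and 9.56 among the rest. Without WT replicate 3 the size of the series difference was 0.86 but the call was lost (adjusted p = 0.121).

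**Figure D2:**
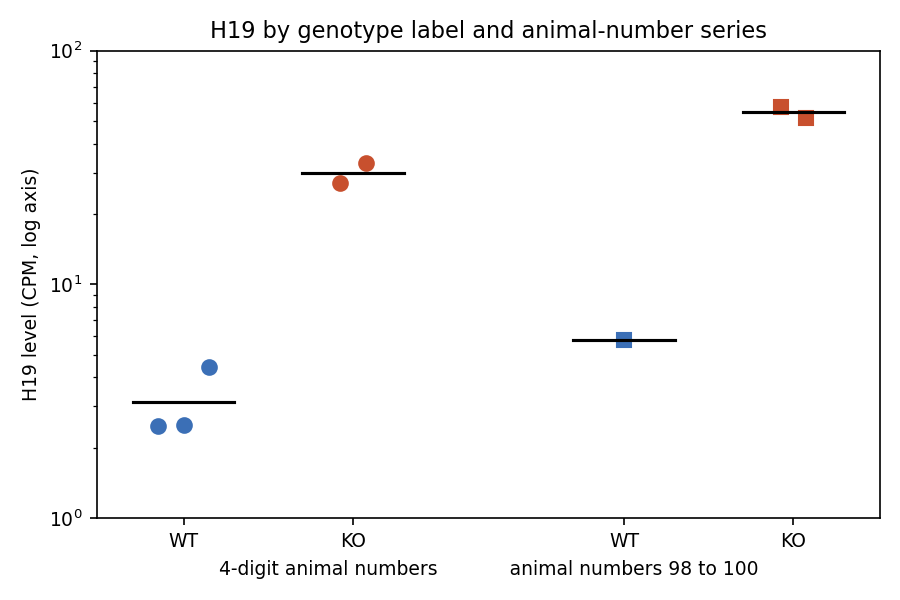
H19 in CPM on a log axis, by genotype and by number series of the animals; each point is 1 library and lines give the mean. The series sit 5.75 against 3.14 CPM in WT and 54.4 against 30.03 CPM in KO, and the genotypes are apart in both.

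Igf2, the growth factor gene that shares its imprinted domain with H19, is read from the paternal chromosome and falls silent in the mouse liver at the same time. It lies 72.6 kb from H19 and is 1 of 4 tested genes within 250 kb. Igf2 rose from 0.696 ± 0.508 to 2.42 ± 1.07 CPM (log2 1.85, SE 0.48, edgeR adjusted p = 0.0471), on 63 counts in WT and 256 in KO. The call was lost in 9 of 17 alternatives, among them limma-voom, the number series as a covariate, the 4-digit animals alone, and the omission of any 1 of 6 libraries (KO replicates 1, 3 and 4, WT replicates 1, 2 and 3). Of 9 genes listed for the H19 domain and its regulators 8 were tested, 1 was called higher (Igf2) and 0 lower, with a median log2 difference of 0.25.

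Gpc3 (ENSMUSG00000055653), at chrX:52272426-52613950 on the minus strand with 8 exon blocks, encodes glypican 3, a heparan sulfate proteoglycan held on the cell surface by a lipid anchor and a marker of hepatocellular carcinoma. The 250 bases before its RefSeq start (GRCm38.p6, chrX:52613975-52614224, minus strand) are shown as the contrast to Afp. That start too lies upstream of the one in the count table. Capitals mark GGGCGG on either strand and CCAAT.
Gpc3 promoter: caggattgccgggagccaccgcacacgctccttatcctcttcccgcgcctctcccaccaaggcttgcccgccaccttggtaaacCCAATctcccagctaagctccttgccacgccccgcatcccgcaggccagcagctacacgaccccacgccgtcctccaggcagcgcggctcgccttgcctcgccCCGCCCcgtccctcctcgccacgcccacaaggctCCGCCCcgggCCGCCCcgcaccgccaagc
This window has a GC content of 71.6% and 25 CpG dinucleotides, against 36.0% and 1 for Afp. It holds 3 GGGCGG matches, all on the strand opposite the gene, and 1 CCAAT. Of all promoter windows, 32.7% held GGGCGG and 33.8% CCAAT on either strand.

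Gpc3 measured 0.693, 0.329, 0.264 and 1.28 CPM in the WT group and 2.75, 1.94, 3.22 and 5.38 CPM in the KO group. The groups did not overlap, KO replicate 4 was the highest library and WT replicates 2 and 3 the lowest, at 8 counts each. The means of 0.640 ± 0.464 and 3.32 ± 1.47 CPM (SD, n = 4) gave a log2 difference of 2.43 (SE 0.46), a fold of 5.40 with an interval from 2.70 to 10.8. Among the animals with 4-digit numbers alone the log2 difference was 1.65, and edgeR did not call the gene. The ratio of KO to WT means was 16.3 among animals 98 to 100, with a single WT library, and 3.06 among the rest, and the interaction of genotype and series was not called (log2 2.35, SE 0.90, edgeR adjusted p = 0.690). Of the 5 other glypicans 3 were tested and 0 called, with 0 at an unadjusted p under 0.05 and 0 by DESeq2 and limma-voom. Gpc4, the neighbour of Gpc3 107 kb away, had a log2 difference of 0.17 (edgeR adjusted p = 0.328).

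Lpl (ENSMUSG00000015568), at chr8:68880491-68907448 on the plus strand with 13 exon blocks, encodes lipoprotein lipase, which releases fatty acids from circulating triglyceride-rich lipoproteins and is made by fat and muscle in the adult. It measured 28.8, 28.7, 24.7 and 16.2 CPM in the WT group and 46.5, 38.0, 52.8 and 46.2 CPM in the KO group. Every KO library lay above every WT library, KO replicate 3 being the highest and WT replicate 4 the lowest. The log2 difference was 0.89 (SE 0.17) between means of 24.6 ± 5.92 and 45.9 ± 6.10 CPM (SD, n = 4), a fold of 1.86 with an interval from 1.45 to 2.39. Among the 4-digit animals alone it was 0.78, and edgeR did not call the gene. Fat cell markers were near 0: 4 of 6 were detected, Lep and Ucp1 had 0 counts, and their sum was 0 to 0.583 CPM in WT and 0 to 0.232 CPM in KO libraries.

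Of 17 listed genes that handle Lpl, among them its transporter, its cofactors and the related lipases, all were tested. EdgeR called 0 higher and 1 lower, against 2.32% and 1.37% of all genes tested, with a median log2 difference of -0.11. An unadjusted p under 0.05 was found for 5, DESeq2 called 3 lower and limma-voom 1, and edgeR called 2 lower with no filter, with the replicate block, with the number series as a covariate and without WT replicate 1. Apoa5, an apolipoprotein that promotes its action, fell from 2256 ± 123 to 1494 ± 215 CPM (log2 -0.59, edgeR adjusted p = 0.0150), a call lost without KO replicate 3 and among the 4-digit animals alone.

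Bex1 (ENSMUSG00000050071), at chrX:136213972-136215513 on the minus strand with 2 exon blocks of 1186 bases, encodes a small adaptor protein best known from the brain. It was counted 0, 2, 2 and 1 times in the WT group and 25, 24, 25 and 39 times in the KO group. These counts are 0, 0.0822, 0.0661 and 0.0555 CPM in WT and 0.968, 0.832, 0.971 and 1.47 CPM in KO, and the count of 0 in WT replicate 1 allows up to 0.109 CPM (3 counts). The groups were far apart, and WT was at the limit of detection. On 5 against 113 counts the pooled ratio was 21.1, with a 95% counting interval from 8.79 to 66.3. The fitted log2 difference was 4.27 (SE 0.62), a fold of 19.4 with an interval from 7.73 to 48.5, between means of 0.0509 ± 0.0357 and 1.06 ± 0.279 CPM (SD, n = 4). Tceal7, on the opposite strand, shares 223 bases (18.8%) of the Bex1 exons, and its row held 0 counts.

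Bex1 has close copies beside it on the X chromosome, and reads that map to more than 1 of them are left out. In the reference transcripts 21.1% of the 50-base stretches of Bex1 occur in another gene, 16.0% in Bex4, and 49.7% of those of Bex4 occur elsewhere. The promoter windows of Bex1 (chrX:136215514-136215763, minus strand) and Bex4 (chrX:136138746-136138995, plus strand) are shown because the genes were both higher in KO and their windows are near copies. They are from RefSeq (GRCm38.p6), and capitals mark GGGCGG.
Bex1 promoter: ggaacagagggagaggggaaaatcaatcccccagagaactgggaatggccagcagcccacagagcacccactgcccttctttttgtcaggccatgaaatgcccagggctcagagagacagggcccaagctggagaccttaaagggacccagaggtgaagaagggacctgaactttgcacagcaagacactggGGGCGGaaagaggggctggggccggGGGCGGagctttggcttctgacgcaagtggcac
Bex4 promoter: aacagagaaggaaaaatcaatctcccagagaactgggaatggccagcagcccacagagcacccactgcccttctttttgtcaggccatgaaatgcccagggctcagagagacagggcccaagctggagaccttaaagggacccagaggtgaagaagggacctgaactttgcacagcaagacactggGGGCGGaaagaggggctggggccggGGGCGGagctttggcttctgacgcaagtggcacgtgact
Over 244 aligned bases 241 were identical (98.8%), with 3 differences and 4 gap bases, and both windows hold 2 GGGCGG matches on the strand of the gene, beginning 58 and 33 bases before the start in Bex1 and 64 and 39 bases before it in Bex4.

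Bex4 rose from 0.198 ± 0.121 to 1.55 ± 0.236 CPM (log2 2.98, SE 0.46, edgeR adjusted p = 0.00294), on 2, 3, 8 and 6 counts in the WT group and 49, 42, 35 and 40 in the KO group. The groups did not overlap, as for 6.19% of all genes tested in this direction, and the call held in all 17 alternatives. With 19 counts in all in WT, Bex4 passed the filter on low counts through the KO libraries. Its list was also chosen with earlier results known, so nothing further is read from the call. Tceal9, a transcription elongation factor-like gene of the same cluster, rose from 7.85 ± 1.73 to 13.5 ± 2.14 CPM (log2 0.79, SE 0.17, edgeR adjusted p = 0.0225), a call lost among the 4-digit animals alone and on leaving out KO replicate 3, KO replicate 4, WT replicate 1 or WT replicate 2. In all, 11 further Bex and Tceal genes were listed and 5 were tested. Of these 2 were called higher and 0 lower, against 2.32% and 1.37% of all genes tested, with a median log2 difference of 0.73.

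Bex4 (73.5 kb) and Tceal9 (29.6 kb) were the 2 called of 4 tested genes within 250 kb of Bex1. Over the 8 genes, 34 neighbours were tested within that distance and 3 were called, against 3.69% of all genes tested in either direction, the third being Igf2. Near Gpc3 0 of 3, near Lpl 0 of 6, near Afp 0 of 8, near Zhx2 0 of 6 and near Zbtb20 0 of 3 were called by edgeR, and no gene near Zfhx3 was tested. An unadjusted p under 0.05 was found for 0, 1, 4, 2 and 0 of them in that order, and for 13 of all 34, against 2643 of the 14645 genes tested. DESeq2 called 7 of the 34 and limma-voom 2. The nearest tested gene to Lpl was Ints10 (51.1 kb, log2 -0.41, adjusted p = 0.212). Gene models overlap the other 3. Gm43449 overlaps Afp on the opposite strand and runs past its end (log2 0.83, edgeR adjusted p = 0.253). Gm16006 lies within Zhx2 on the opposite strand (log2 1.49, edgeR adjusted p = 0.127) and BC002163 within Zbtb20 (log2 -0.24, edgeR adjusted p = 0.338). None of these models shares exon bases with the gene it overlaps. Beyond them lay Afm, 10025 bases from Afp, and Derl1, 29.7 kb from Zhx2 (log2 0.00).

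**Figure D3:**
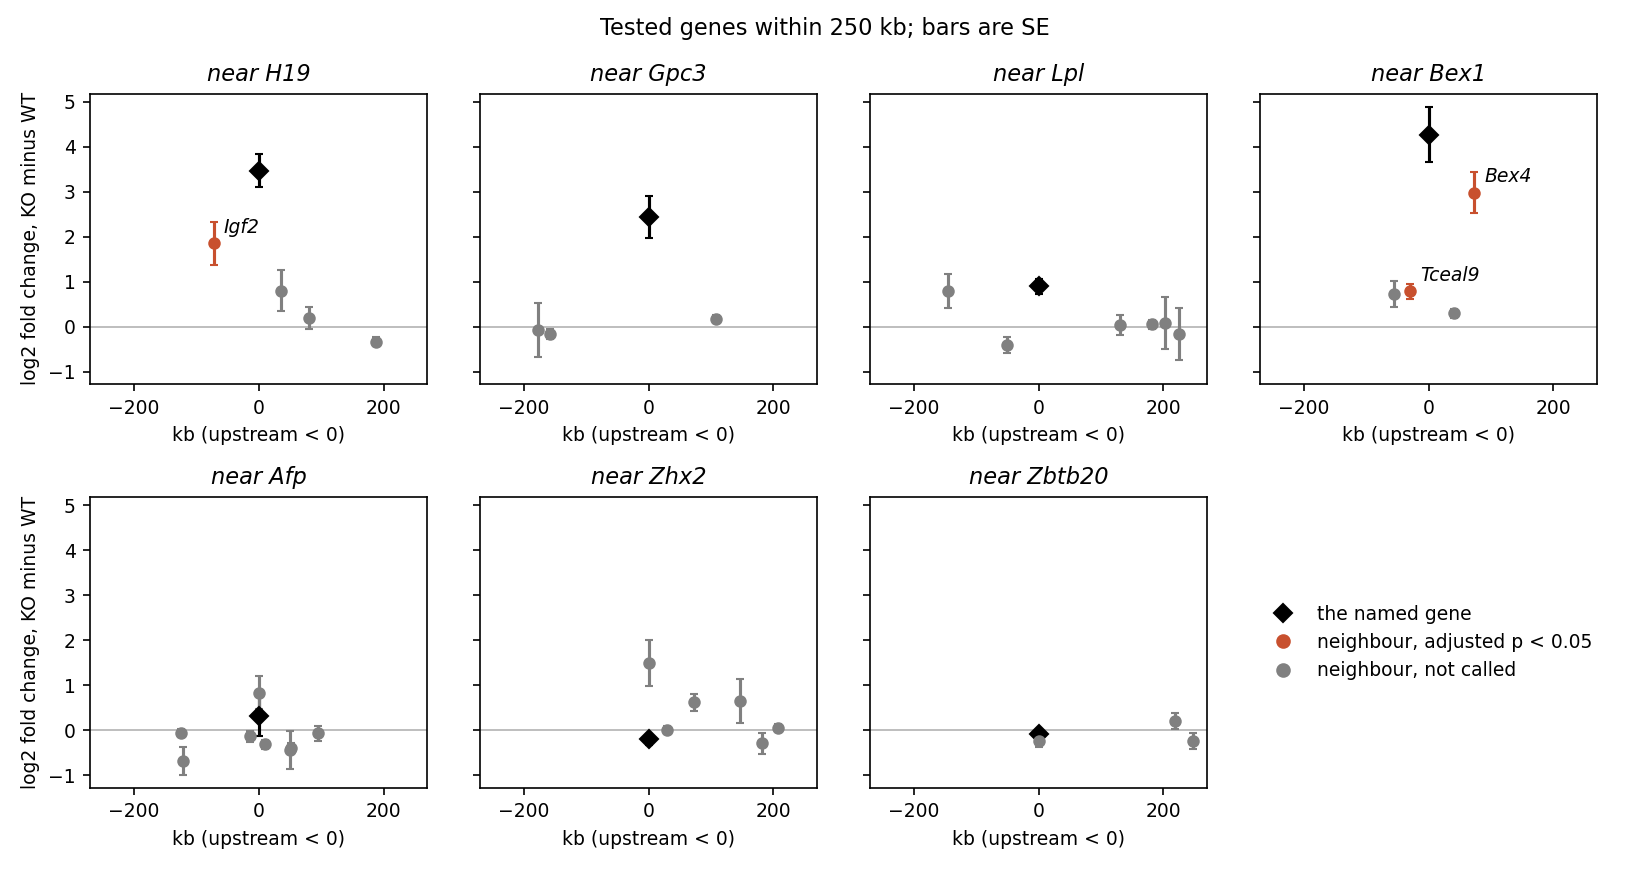
Log2 difference of KO against WT for tested genes within 250 kb of 7 of the 8 genes (none was tested near Zfhx3), by distance in kb; diamonds are the named genes, bars the SE of the fit and red points an adjusted p under 0.05. The called neighbours are Igf2 near H19 and Bex4 and Tceal9 near Bex1.

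The level of Zhx2 and that of the silenced genes can be read library by library. WT replicates 2 to 4, at 14.4 to 14.8 CPM, and KO replicates 1 and 2, at 14.5 and 14.8 CPM, had like amounts of Zhx2. H19 was 2.51 to 5.75 CPM in those WT libraries and 27.1 and 33.0 CPM in those KO libraries. At the extremes, WT replicate 1 had the highest Zhx2 (18.0 CPM) and the lowest H19 (2.48 CPM) with 0 counts of Bex1, but also the highest Lpl (28.8 CPM) and the second-highest Gpc3 (0.693 CPM) of the WT group. WT replicate 2 had nearly the same H19 (2.51 CPM) with Zhx2 at 14.8 CPM, and no WT library held more than 2 counts of Bex1. KO replicate 4 had the lowest Zhx2 (11.4 CPM) and the highest Gpc3 (5.38 CPM) and Bex1 (1.47 CPM), while H19 (57.6 against 51.3 CPM) and Lpl (52.8 against 46.2 CPM) were higher in KO replicate 3. No correlation between the repressor and these genes is given, since each genotype holds 4 libraries. Only RNA of whole liver was measured, so the amount and activity of the repressor proteins are not known. The part of Zhx2 in the levels of these genes was not tested.

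**Figure D4:**
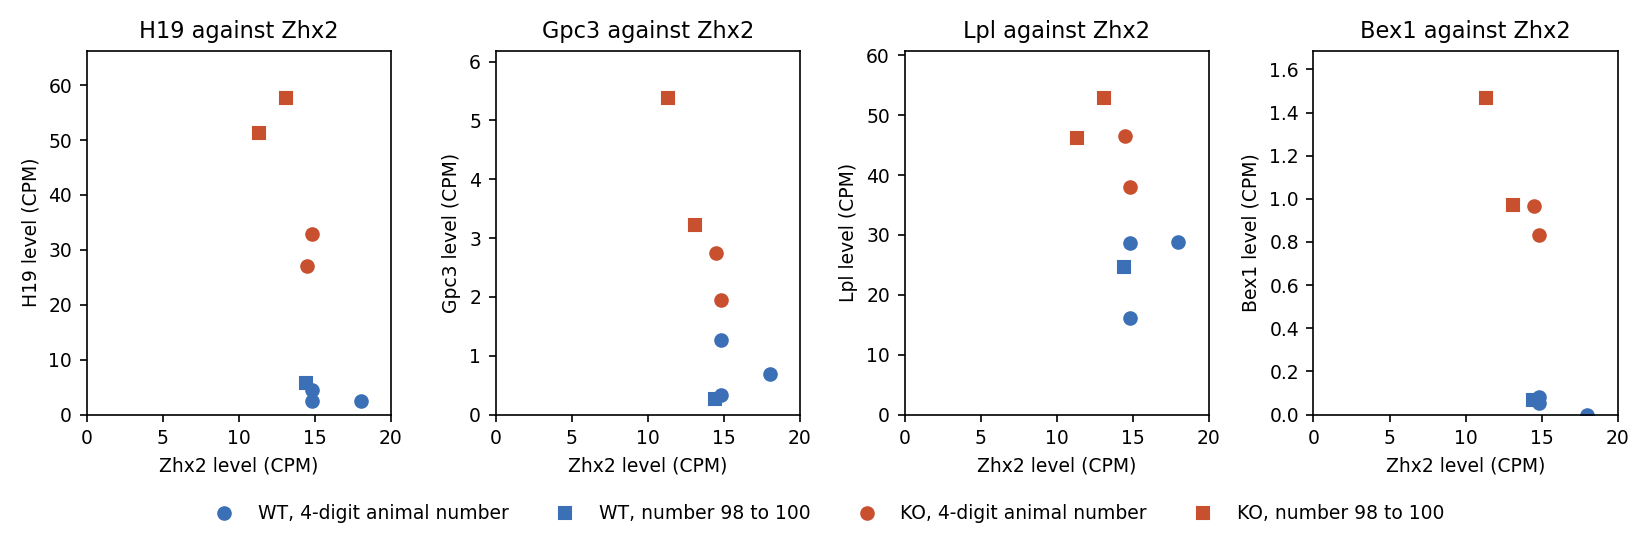
Zhx2 in CPM on the x axis against H19, Gpc3, Lpl and Bex1 on the y axes, 1 point per library. WT replicates 2 to 4 and KO replicates 1 and 2 share a Zhx2 level of 14.4 to 14.8 CPM and differ on the y axes.

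Ranked by CPM per kilobase of exon, the order in WT was Zbtb20 (4.94), Lpl (3.61), Zhx2 (3.50), H19 (1.60), Zfhx3 (1.10), Afp (0.239), Gpc3 (0.238) and Bex1 (0.0429). Lpl and Zhx2, H19 and Zfhx3, and Afp and Gpc3 were neighbours whose ranges over the 4 libraries overlapped. In KO the order of CPM per kilobase was H19 (17.8), Lpl (6.74), Zbtb20 (4.66), Zhx2 (3.03), Gpc3 (1.24), Zfhx3 (1.21), Bex1 (0.893) and Afp (0.302). There the ranges of Gpc3 and Zfhx3 and of Zfhx3 and Bex1 overlapped. H19 moved from the fourth place to the first and Afp to the last. The exons of Zbtb20 merge many isoforms, so its level per kilobase is a low estimate.

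Of 5 other genes known to respond to Zhx2 in liver (Elovl3, Mup20, Cyp2a4, Cyp4a12a and Cyp2b9) 4 were tested. EdgeR called 0, with 3 at an unadjusted p under 0.05 and 0 by DESeq2 and limma-voom. The median log2 difference of -0.68 covers both directions, Cyp2a4 being at 0.45. The direction in which Zhx2 moves each gene is not given here, so the median is not read as a response to Zhx2. Mup20, a major urinary protein and pheromone carrier, measured 16.4 ± 3.15 CPM in WT and 11.1 ± 3.21 CPM in KO (log2 -0.57, adjusted p = 0.123), and it was called lower in 3 of 17 alternatives, with no filter, among the 4-digit animals alone and without KO replicate 3 (adjusted p from 0.0140 to 0.276 over all of them). Cyp2b9, a steroid hydroxylase, measured 722 ± 246 and 417 ± 118 CPM (log2 -0.79, adjusted p = 0.266), and was called lower in 1 of 17, without WT replicate 1 (adjusted p from 0.0348 to 0.559). Genes of these families have near-identical copies, so their counts are uncertain.

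Further genes of fetal liver and liver tumours were higher in KO in part. Of 15 listed, 10 were tested, 4 were called higher and 0 lower, against 2.32% and 1.37% of all genes tested. Their median log2 difference was 0.42. Cd24a, a surface glycoprotein of progenitor and bile duct cells, rose from 2.72 ± 0.201 to 8.76 ± 2.45 CPM (log2 1.68, edgeR adjusted p = 0.000902). Sox4, which encodes an HMG-box transcription factor, rose by 1.21 on the log2 scale (edgeR adjusted p = 0.00157). Peg3, an imprinted zinc finger gene read from the paternal chromosome, rose from 23.7 ± 3.51 to 56.9 ± 13.8 CPM (log2 1.26, edgeR adjusted p = 0.00208). These 3 calls held in all 17 alternatives, and the fourth gene was Igf2. Igf2bp3, an RNA-binding protein of fetal tissues named here after its values were seen, did not pass the filter, with 2, 0, 0 and 0 counts in the WT group and 8, 13, 13 and 14 in the KO group (pooled ratio 22.4, counting interval from 5.88 to 191). Lin28b, a fetal regulator of microRNA processing, had 0 counts in every library. The other untested genes of the list were Hmga2 (10 counts in WT and 1 in KO), Igf2bp1 (3 and 1) and Dlk1 (1 and 5).

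**Figure D5:**
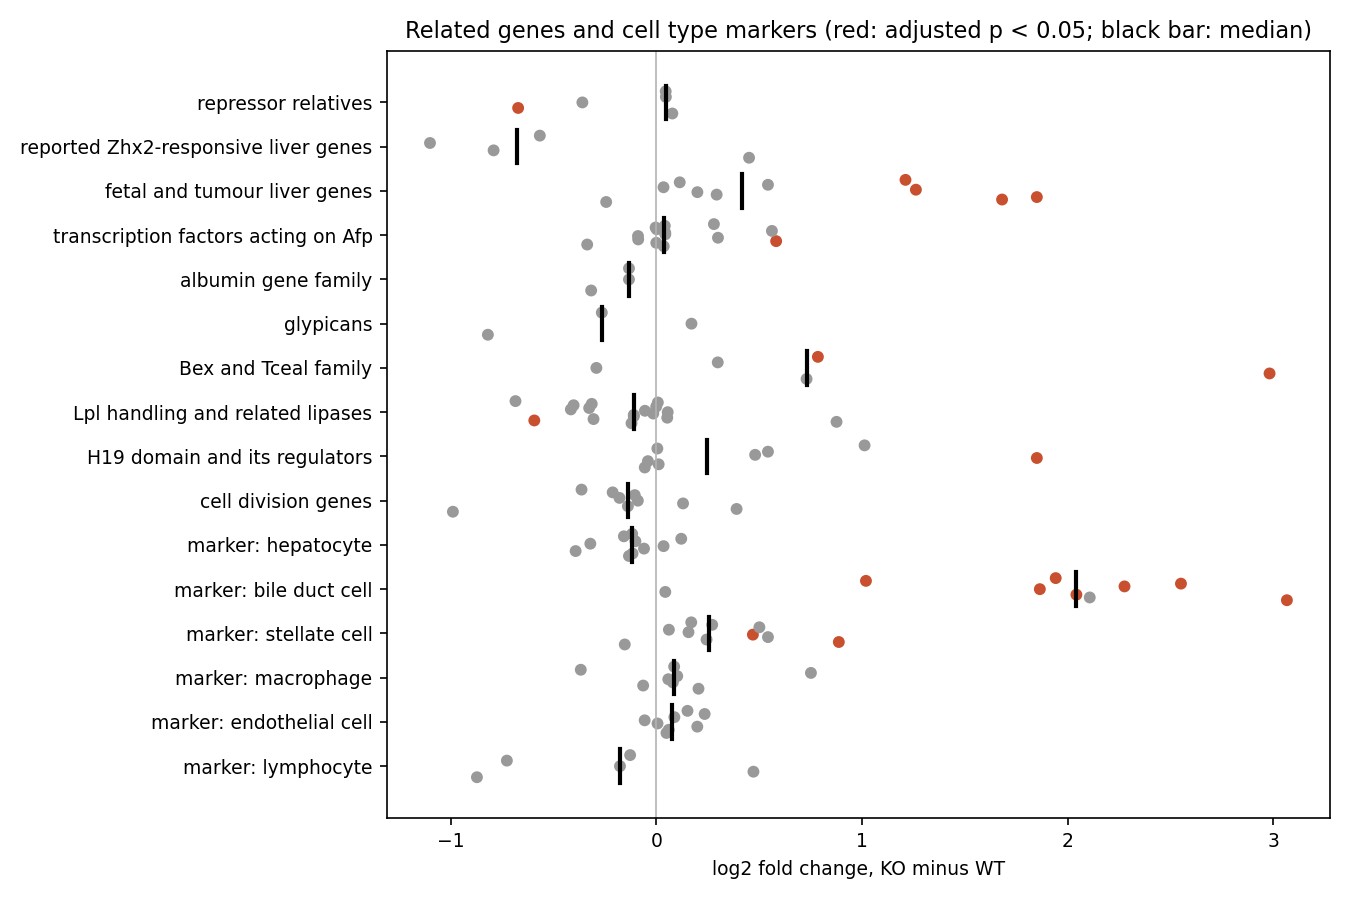
Log2 difference of KO against WT for the tested genes of each list, 1 point per gene, with the list's median as a black bar and a grey line at 0. Red points have an adjusted p under 0.05; in the fetal and tumour list 4 of 10 are red and all lie above 0, and in the list of Lpl handling genes 1 of 17 is red and lies below 0.

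Cell division genes, which rise in regenerating liver and tumours, gave 0 calls among 9 tested of 10 listed, with 0 at an unadjusted p under 0.05 and 0 by DESeq2 and limma-voom. Their median log2 difference was -0.14, with Birc5 at -0.99 (adjusted p = 0.304) and Pcna at -0.21 (adjusted p = 0.520).

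Bile duct markers differed between the groups along with the silenced genes. Of 10 markers, all detected, 9 were tested and 7 called higher, against 2.32% of all genes tested, with a median log2 difference of 2.04. The summed level of the markers was 64.4 to 87.5 CPM in WT and 179 to 273 CPM in KO libraries. Epcam, a surface protein of bile duct cells, rose by 2.04 on the log2 scale and Spp1, a secreted matrix protein made by them, by 1.94 (edgeR adjusted p = 0.000902 and 0.00163). Krt7, a duct keratin, rose by 2.28 and Cftr, the duct chloride channel, by 3.07 (edgeR adjusted p = 0.00194 and 0.00204). With 24 counts in all in WT, against 212 in KO, Cftr passed the filter on low counts through the KO libraries. Its call is among the 7 above, and nothing further is read from it. Within KO the sums were 179, 186, 254 and 273 CPM in replicates 1 to 4. H19 and Gpc3 were likewise highest in KO replicates 3 and 4, which are also the KO animals without 4-digit numbers. WT replicate 3, the WT animal without such a number, had the highest WT sum (87.5 CPM) and H19 (5.75 CPM). It had the lowest Gpc3 (0.264 CPM), however. Spp1 alone averaged 43.1 CPM in WT and 166 CPM in KO. The part of bile duct cells in the levels of H19, Gpc3, Lpl, Bex1 and the fetal genes was not tested.

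Of 10 stellate cell markers edgeR called 2 higher, against 2.32% of all genes tested. These were Cygb (log2 0.89, edgeR adjusted p = 0.00908) and Hgf (log2 0.47, edgeR adjusted p = 0.0279). An unadjusted p under 0.05 was found for 6, against 18% of all genes tested, and DESeq2 called 4 and limma-voom 2. The call of Hgf was lost in 6 of 17 alternatives, those without WT replicate 1, 2 or 4 and those without KO replicate 1, 2 or 4. The summed level of the stellate markers was 465 to 498 CPM in WT and 528 to 591 CPM in KO, without overlap. Most of it came from Dcn and Reln, at 217 and 90.7 CPM in WT, neither called by edgeR. Of single genes tested, 6.19% showed no overlap in this direction and 5.01% in the other. All 10 stellate markers were detected and 9 had a higher mean in KO. Macrophage and endothelial markers gave 0 calls by edgeR among 8 tested each, with 0 and 2 at an unadjusted p under 0.05 and 0 by DESeq2 and limma-voom in both. Their sums were 338 to 430 and 411 to 470 CPM in WT and 354 to 457 and 455 to 502 CPM in KO. Lymphocyte markers summed to 8.46 to 16.6 CPM in WT and 5.75 to 8.29 CPM in KO, lower in KO and only just without overlap. Ighm made up most of the sum, at 8.44 ± 2.92 CPM in WT and 5.11 ± 0.574 CPM in KO, and was not called by edgeR. Of the 6 markers 1 had a higher mean in KO. The lymphocyte markers gave 0 calls by edgeR among 5 tested, with 1 at an unadjusted p under 0.05 and 1 by DESeq2. Hepatocyte markers likewise gave 0 calls by edgeR among 10, with 2 at an unadjusted p under 0.05 and 1 by DESeq2. The part of these cell types in the results was not tested.

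Outside the contrast of the groups, the genes most like each of the 8 were taken as those whose log2 CPM followed it best over the 8 libraries after the mean of each group was taken off. For Zhx2 they were Zdhhc20 (Pearson's r 0.978), Suz12 (0.971) and Git2 (0.967). Suz12 encodes a subunit of the Polycomb repressive complex. Cox5b (0.998), Rbm17 and Ppp1r35 came first for Zbtb20, and Yeats2 (0.983), Serac1 and Ino80dos for Zfhx3.

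The likest genes of H19 were Msmo1 (0.979), an enzyme of cholesterol synthesis, Aebp1 (0.976) and Abca9 (0.976). Gpc3 was followed best by Stx8 (0.965), Yeats4 and Nrarp, Lpl by Ahnak (0.973), Ncoa6 and Myzap, Bex1 by Zfp7 (0.985), Anks1 and Prdm16, and Afp by Nutf2 (0.979), Nup133 and mt-Nd6. With 8 libraries and 14645 genes, values of this size describe these libraries alone, which also share their depth and number series.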

How the data were processed

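Total liver RNA was enriched for mRNA and made into strand-specific libraries, per the labels' protocols. Reads were handled with bcl2fastq 2.19.1, GSNAP and featureCounts 1.5.1 on mm10, per the submitters' processing notes. The deposited values are raw read counts per gene and exon lengths in bases, counted by the authors against Ensembl 81 with strand setting 2 and a minimum mapping quality of 1, per the file headers. Reads mapping to more than 1 place are left out, since the recorded command does not ask for them. The 92 ERCC spike-in rows held 0 counts. Of 45706 gene rows, 45143 matched a symbol. All pairs of libraries differed by more than sampling noise (smallest chi-square per degree of freedom 16.7).

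The counts were fitted with edgeR 4.0.16 under R 4.3.3 (filterByExpr with its minimum count of 10, TMM scaling, quasi-likelihood test, Benjamini-Hochberg adjustment over 14645 genes, called at an adjusted p under 0.05). CPM use TMM library sizes, with a prior count of 2 on the log2 scale. Intervals are 95%, and pooled ratios of counts have exact intervals that cover counting error only. The number series was tested with genotype as a covariate, and an interaction term was fitted in addition. Promoters and miRNAs came from RefSeq tables on GRCm38.p6, in which 5 of the 8 genes had a promoter, and transcripts from GENCODE M21.

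The 8 genes and all gene lists were chosen with earlier results of these data known. A gene of the Lpl list is not reported here. Named from each list were up to 4 called genes in order of p, or up to 2 with the smallest p where none was called, then the called genes or the nearest gene within 250 kb, and the 3 likest genes of each of the 8 (mean log2 CPM above 0, predicted models left out). Zhx1, Zhx3, Lin28b, Igf2bp3, Hmga2, Igf2bp1, Dlk1, Dcn, Reln and, as a next neighbour, Derl1 fall outside this rule and were named after their values were seen. Nothing says that same-numbered mice of the groups are pairs. The edgeR step was tested on simulated data. For KO against WT over 14645 genes it recovered 21 of 50 genes changed 1.5-fold, 38 changed 2-fold, 45 changed 3-fold and 49 changed 4-fold, with 4 of 14270 unchanged genes called. Alternatives were RLE and upper-quartile scaling, no filter or a stricter one (1 CPM in 4 libraries), DESeq2 1.42.0, limma-voom (limma 3.58.1), a replicate block, the number series as a covariate, the 4-digit animals alone, and each library left out in turn.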

Additional observations from a re-analysis of the deposited data

Results flagged for a closer look

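In the WT group, Zhx2 in replicate 1 stood far above the other libraries at 18.0 CPM, its gap to the next library being 0.868 of the range of the group. Zbtb20 likewise stood apart in WT replicate 4 at 173 CPM, with a gap of 0.926 of the range. Both exceed the 95% critical value of Dixon's ratio for 4 values. Of 16 groups examined (8 genes in WT and in KO), chance alone would set apart about 1 in 20. Without WT replicate 1 the log2 difference of Zhx2 was -0.13, and without WT replicate 4 that of Zbtb20 was -0.02.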

How the results depend on the processing

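Over the alternatives the log2 difference of KO against WT, a description for these genes, ran from 3.27 to 3.78 for H19, 1.65 to 2.94 for Gpc3, 0.74 to 0.97 for Lpl, 3.85 to 4.58 for Bex1, -0.26 to -0.11 for Zhx2, -0.15 to -0.0005 for Zbtb20 and 0.05 to 0.31 for Zfhx3. Afp and Bex1 gave no value under the stricter filter. Among the 4-digit animals alone 2 of the 8 genes (H19 and Bex1) and 215 of all genes were called higher. The calls of Gpc3 and Lpl were lost there, and the log2 difference of Gpc3 was 1.65. Genes called lower, 201 in all, were 328 with no filter and 308 with the number series as a covariate. DESeq2 called 613 genes higher and 495 lower. Neighbours called, 3 in the analysis above, were 5 with no filter and 7 by DESeq2. Leaving out 1 library at a time gave 151 (without WT replicate 2) to 710 (without WT replicate 3) genes called higher, 71 to 534 lower (same libraries), 1 to 4 neighbours and a log2 difference of Bex1 from 3.85 (without WT replicate 1) to 4.58 (without WT replicate 2). Genes called higher were 209 and lower 108 without WT replicate 1, 218 and 113 without KO replicate 1, 158 and 73 without KO replicate 3, and 170 and 83 without KO replicate 4. For the number series, 546 and 352 genes were called higher and lower with no filter, and 398 and 271 by DESeq2. Leaving out 1 library gave 31 (without WT replicate 3) to 250 higher and 25 (without WT replicate 3) to 149 lower, 0 to 1 of the 8 genes called, and a log2 difference of H19 from 0.80 to 0.96, the 1 call lost being that without WT replicate 3 (0.86). Without KO replicate 2 the series counts were 55 and 70, and without KO replicate 4 they were 59 and 45. No called result changed its sign; Afp, not called, was at -0.02 without KO replicate 4. With the replicate number as a block, 353 genes were called higher and 211 lower, and the log2 difference was 3.49 for H19, 2.48 for Gpc3, 0.92 for Lpl and 4.25 for Bex1. Deviations of same-numbered mice correlated at 0.0255, 0.0251, 0.1216 and -0.1472. These values cannot decide on pairing, since deviations within a group depend on each other and can also carry the number series. The numbers were not taken as pairs because nothing says that they are. The cause of these changes was not tested. Depth limits Bex1, Gpc3 and Afp most, at 0 to 2, 8 to 23 and 9 to 39 counts per WT library.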
